A study of Macaca mulatta with 12 samples.

Results

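The 6 neural lineage genes followed here through all 12 arrays of a rhesus macaque study are PAX6, NEUROG2, TUBB3, DCX, GFAP and PAX3. Every probe set, a group of short array probes summarised to 1 value, was taken whose platform annotation gives 1 of these 6 symbols and no other. Of 12993 genes named on the array these are 6, and they gave 15 probe sets among 52766, 2 for PAX6, 1 for NEUROG2, 4 for TUBB3, 2 for DCX, 2 for GFAP and 4 for PAX3.

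The study set 3 embryonic stem (ES) cell lines and skin fibroblasts side by side, with 3 arrays a group labelled biological replicates A, B and C. ORMES-22 is a female line from a fertilised (IVF) blastocyst and serves as the biparental control, at passages 18, 21 and 19. rPESC-2 is a female line from a parthenogenetic blastocyst, one that developed without fertilisation, and is labelled heterozygous, at passages 16, 10 and 16. ORMES-9, also female, at passages 13, 14 and 16, is called a homozygous parthenogenetic line in the sample descriptions and the series design, whereas the source and treatment fields of the same samples give an IVF blastocyst. It is therefore called by its line name here. All ES cells were grown on inactivated mouse embryonic fibroblast feeders, and RNA was taken from colonies described as undifferentiated. The fibroblasts were male skin cells of a 9 year old monkey, grown in another medium without a feeder being named. Each ES line is 1 line, so a difference between lines cannot be told apart from a difference in the mode of derivation, and p-values measure the spread between cultures of the same line.

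PAX6 is a paired-box transcription factor of the early neural plate and the eye, and PAX3 is its relative in the dorsal neural tube, the neural crest and the muscle-forming somites. NEUROG2 is a proneural factor that commits progenitors to a neuronal fate. TUBB3, a beta tubulin, and DCX, a microtubule-binding protein of migrating young neurons, build the neuronal cytoskeleton, and GFAP is the intermediate filament of astrocytes. Undifferentiated ES cells are held before these steps, and spontaneous neural differentiation of their cultures is usually read from such genes.

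Values are RMA expression levels on a log2 scale, so that a difference of 1 is 2-fold. Array medians lay between 5.011 and 5.097, and the background level was set at 4.166, below which 90% of 42 spike-in probe sets for bacterial RNA lay. Of the 15 probe sets 13 had a group mean above that level in at least 1 group, beside 78.3% of all probe sets. Of 9 pluripotency genes measured, 7 were called lower in fibroblasts, among them POU5F1 with means of 12.87 to 13.12 in the ES lines and 4.90 in fibroblasts. NANOG was called higher, with a mean of 9.53 in fibroblasts. Of 11 fibroblast markers 8 were called higher there and none lower, with LUM, a matrix gene, at 11.49 against ES line means under background. DCN, another matrix gene, was not higher in fibroblasts (6.69) than in the ES lines (7.02 to 7.27). ORMES-22 replicate A differed from replicates B and C, with correlations over all probe sets of 0.9855 and 0.9844. Replicates B and C correlated at 0.9928 with each other. With the rPESC-2 arrays replicate A correlated at 0.9882 to 0.9896, and replicates B and C at 0.9758 to 0.9834. Which of these cultures is typical of the line cannot be told from these values. Results that rest on replicate A are given with and without it.

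**Figure D1:**
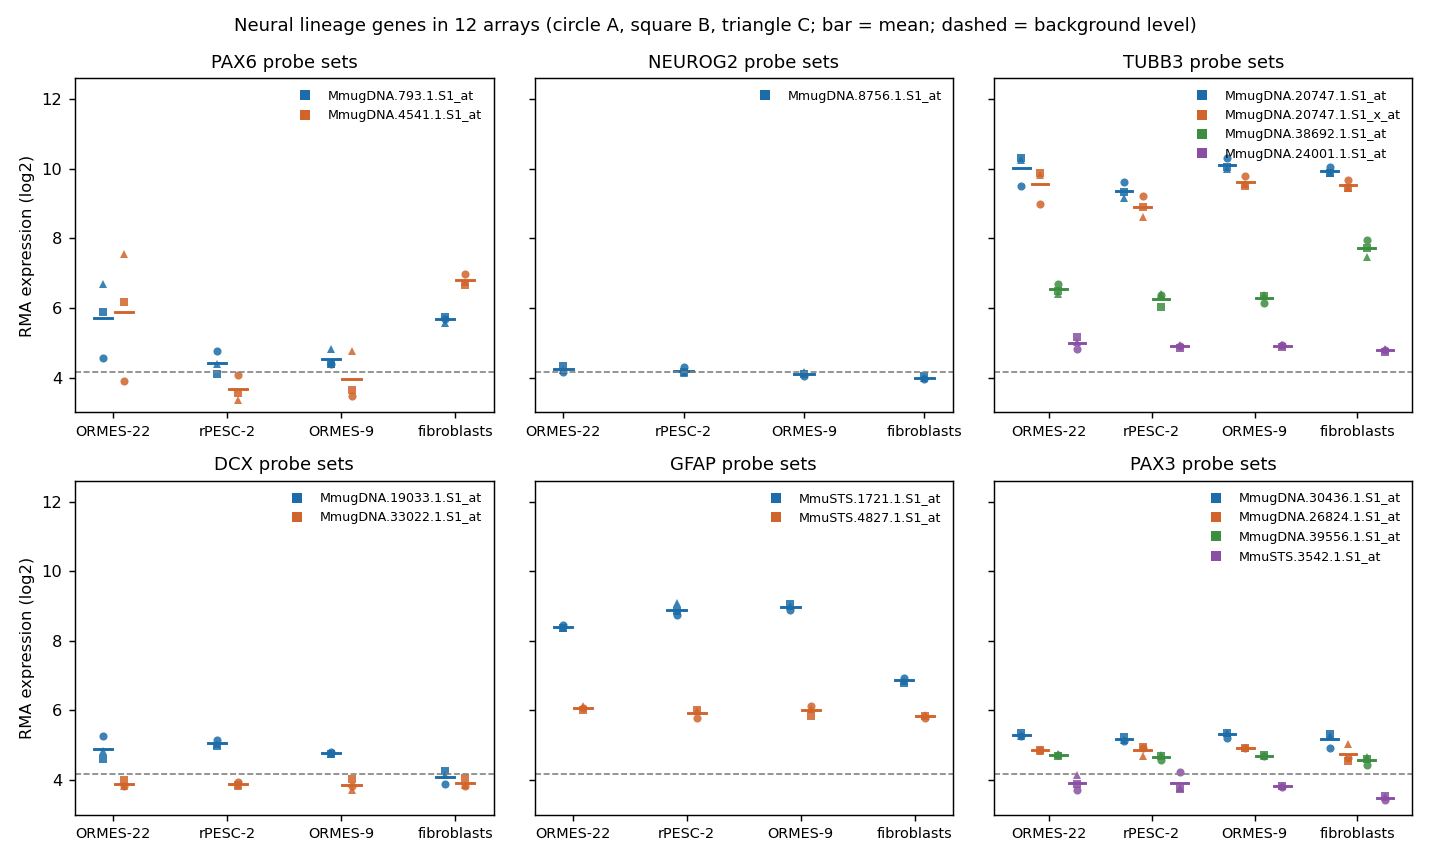
RMA expression (log2, vertical axis) of each probe set of the 6 genes in the 3 ES lines and the fibroblasts, with 1 point an array, a bar at the group mean and a dashed line at the background level. PAX6 spread widely in ORMES-22 and GFAP MmuSTS.1721.1.S1_at was lower in all 3 fibroblast arrays, while NEUROG2 and PAX3 hardly moved.

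PAX6 was the member with the widest spread between ES cultures. Its probe set MmugDNA.793.1.S1_at read 4.56, 5.89 and 6.68 in ORMES-22 replicates A, B and C, 4.78, 4.11 and 4.38 in rPESC-2, and 4.39, 4.41 and 4.83 in ORMES-9. In fibroblasts it read 5.69, 5.75 and 5.58. ORMES-22 replicates B and C thus lay above every array of the other ES lines, and replicate A lay among them.

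The second PAX6 probe set, MmugDNA.4541.1.S1_at, read 3.91, 6.18 and 7.56 in ORMES-22, 4.07, 3.55 and 3.37 in rPESC-2, 3.46, 3.64 and 4.76 in ORMES-9, and 6.98, 6.68 and 6.74 in fibroblasts. The arrays fell in the same pattern, and all 3 rPESC-2 arrays were under the background level. Across the 12 arrays the PAX6 probe sets correlated at r = 0.960, and across the 9 ES arrays at 0.987, as a description of 1 gene read by 2 probe sets on the same arrays.

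The ORMES-22 mean of MmugDNA.793.1.S1_at was 5.71 ± 1.07 (SD, n = 3), against 4.42 ± 0.34 in rPESC-2 and 4.54 ± 0.25 in ORMES-9. The difference was -1.29 (SE 0.39, 95% interval -2.15 to -0.42, limma adjusted p = 0.09) for rPESC-2 minus ORMES-22 and -1.16 (SE 0.39, interval -2.03 to -0.30, adjusted p = 0.12) for ORMES-9 minus ORMES-22. For MmugDNA.4541.1.S1_at the differences were -2.22 (SE 0.68, adjusted p = 0.09) and -1.93 (SE 0.68, adjusted p = 0.14). None of these passed the adjusted test, and the groups overlapped through ORMES-22 replicate A.

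Without ORMES-22 replicate A, both PAX6 probe sets passed in both comparisons. Relative to ORMES-22, MmugDNA.793.1.S1_at was then at -1.86 (limma adjusted p = 0.00028) for rPESC-2 and at -1.74 (adjusted p = 0.00047) for ORMES-9, and MmugDNA.4541.1.S1_at at -3.20 (adjusted p = 0.00033) and -2.91 (adjusted p = 0.00068). Without ORMES-22 replicate C the same differences shrank to -0.80, -0.68, -1.38 and -1.09, with adjusted p between 0.22 and 0.35. With values under the background level raised to it, the MmugDNA.4541.1.S1_at differences were -1.80 for rPESC-2 and -1.60 for ORMES-9. The PAX6 level of ORMES-22 therefore depended on which cultures were counted. In RNA of whole cultures, a larger share of PAX6-expressing cells and more PAX6 RNA per cell cannot be told apart.

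**Figure D2:**
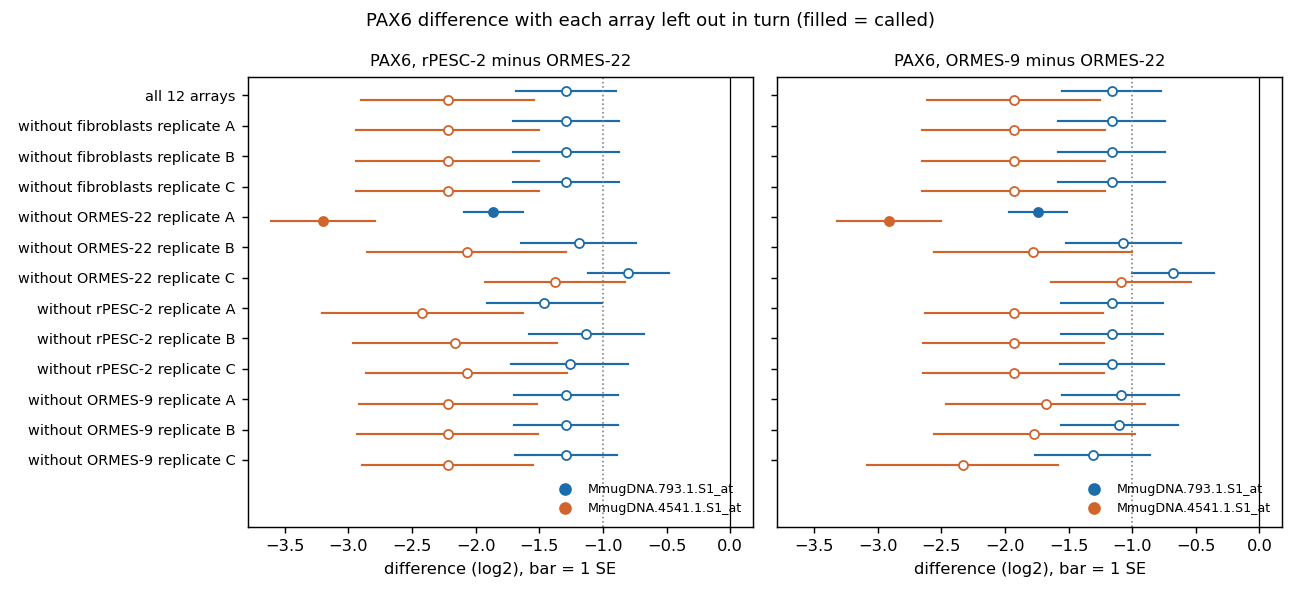
Difference in PAX6 level (log2, horizontal axis, bar = 1 SE) between each of rPESC-2 and ORMES-9 and the line ORMES-22, with all 12 arrays and with each array left out in turn; filled points passed the adjusted test at 2-fold or more. The only filled points are those without ORMES-22 replicate A.

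Markers of other cell types were read in the same arrays. The summed linear signal of 9 trophoblast markers was 819.3, 885.8 and 1668 in ORMES-22 replicates A, B and C, 532.9 to 739 in rPESC-2, and 725.4, 983.8 and 1238 in ORMES-9, with 7 of the 9 above background in each line. In fibroblasts the same sum was 1025, 1002 and 1054, also with 7 of the 9 above background and with TFAP2C at 9.38. A high sum is thus not particular to trophoblast in these arrays. In ORMES-22 and in ORMES-9 replicate C was highest for this sum and for both PAX6 probe sets, an observation chosen after the values were seen. Without TFAP2C, also a choice made after the values were seen, the sums of the other 8 were 377.0, 457.2 and 591.5 in ORMES-22. They were 372.6, 393.4 and 391.6 in rPESC-2 and 436.7, 497.2 and 663.5 in ORMES-9. Replicate C then stayed highest within ORMES-22 and within ORMES-9, but ORMES-9 replicate C was above ORMES-22 replicate C. GATA3, a regulator of trophoblast and of other epithelia, read 5.56, 6.19 and 8.02 in ORMES-22, 5.62, 5.92 and 5.52 in rPESC-2, and 5.59, 5.92 and 7.94 in ORMES-9. ORMES-9 replicate C was thus near ORMES-22 replicate C in GATA3, while its PAX6 probe sets read 4.83 and 4.76 against 6.68 and 7.56. TFAP2C was also highest in replicate C of both lines, whereas KRT7, ENPEP and HAND2 were not. The summed signal of 8 mesoderm markers was 5936, 7042 and 6993 in ORMES-22 against 1135 to 2235 in the other ES lines, and ACTC1, a cardiac actin, carried that difference: without it, a choice made after the values were seen, the sums of the other 7 were 293.2, 485.2 and 357.2 in ORMES-22 against 391.6 to 510.2. That of 7 endoderm markers was 716.4 to 1023 against 1495 to 2085, and that of 11 skin fibroblast markers was 4683 to 5467 against 2513 to 3433. COL1A1 was the strongest of these 11 in each ES line, with means of 11.30 in ORMES-22, 10.48 in rPESC-2 and 10.40 in ORMES-9. LUM and FAP had ES line means under background. The part of these cell types in the PAX6 levels was not tested.

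**Figure D3:**
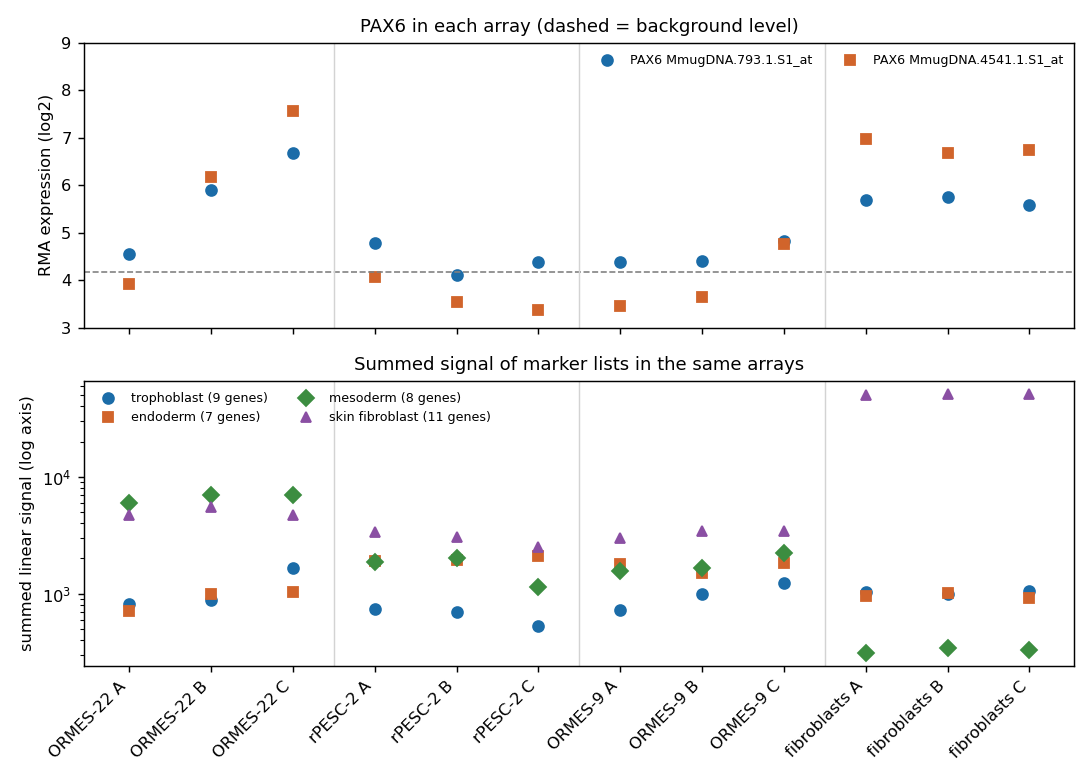
PAX6 level (log2, upper panel, dashed line = background level) and summed linear signal of 4 marker lists (log axis, lower panel) in each of the 12 arrays. ORMES-22 replicate C had the highest PAX6 values of MmugDNA.793.1.S1_at and MmugDNA.4541.1.S1_at, 6.68 and 7.56, and the highest trophoblast sum, 1668. Without TFAP2C the highest trophoblast sum was 663.5, in ORMES-9 replicate C, against 591.5 in ORMES-22 replicate C. ACTC1 carries the high mesoderm sum of ORMES-22.

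Fibroblasts had PAX6 signal as well. MmugDNA.4541.1.S1_at was 6.80 ± 0.16 (SD, n = 3) there and rose by 2.30 (SE 0.56, 4.92-fold, limma adjusted p = 0.0035) over the mean of the 3 ES lines, or by 1.97 (adjusted p = 0.018) with values under background raised to it. Against ORMES-22 alone the difference was 0.92 (adjusted p = 0.27), against rPESC-2 3.13 (adjusted p = 0.002) and against ORMES-9 2.84 (adjusted p = 0.0038). The means of rPESC-2 and ORMES-9 lie under the background level, and with values under it raised to it, a setting added after the data were seen, the 3 differences were 0.83 (adjusted p = 0.4), 2.63 (adjusted p = 0.013) and 2.44 (adjusted p = 0.019). MmugDNA.793.1.S1_at was 5.67 ± 0.08 in fibroblasts and differed from the ES lines by 0.78 (SE 0.32, adjusted p = 0.053), which missed the threshold.

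By MmugDNA.793.1.S1_at the order of PAX6 levels was ORMES-22, fibroblasts, ORMES-9 and rPESC-2. ORMES-22 and fibroblasts differed by less than their spread (fibroblasts minus ORMES-22 -0.04, interval -0.90 to 0.83), as did ORMES-9 and rPESC-2 (0.12, interval -0.74 to 0.98). Fibroblasts and ORMES-9 were 1.13 apart (SE 0.39, limma adjusted p = 0.03, or 0.079 with values under background raised to it). Over the 12 arrays the named genes most like this probe set were STARD13 (r = 0.957), LRRC4 (0.938) and COX8A (0.936), and over the 9 ES arrays DTX4 (0.985), SRPX2 (0.980) and TNFRSF11B (0.978). These are the highest of 6448 and 2554 genes searched.

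NEUROG2, read by MmugDNA.8756.1.S1_at, stayed near the background level in every group. It was 4.15, 4.34 and 4.23 in ORMES-22, 4.29, 4.15 and 4.14 in rPESC-2, 4.05, 4.09 and 4.15 in ORMES-9, and 3.96, 4.05 and 3.99 in fibroblasts. The ES lines overlapped, and the fibroblast arrays were lowest but for an overlap with 1 ORMES-9 array. The fibroblast difference of -0.18 (SE 0.06, limma adjusted p = 0.026) is between values around the background level and was below 2-fold. No difference of NEUROG2 between ES lines passed, the farthest from 0 being -0.14 (interval -0.31 to 0.02) for ORMES-9 minus ORMES-22.

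TUBB3 had a high signal in all 4 groups, including the fibroblasts. MmugDNA.20747.1.S1_at read 9.50, 10.33 and 10.27 in ORMES-22, 9.62, 9.32 and 9.17 in rPESC-2, 10.32, 10.05 and 9.99 in ORMES-9, and 10.05, 9.90 and 9.88 in fibroblasts. All rPESC-2 arrays lay below all ORMES-9 and fibroblast arrays, and ORMES-22 replicate A again lay with rPESC-2. The difference ORMES-9 minus rPESC-2 was 0.75 (SE 0.19, 1.68-fold, limma adjusted p = 0.046), below 2-fold, and rPESC-2 minus ORMES-22 was -0.66 (SE 0.19, adjusted p = 0.077). Without ORMES-22 replicate A the latter was -0.93 (SE 0.13, limma adjusted p = 0.00075), still below 2-fold, and without replicate B or C it was -0.51 and -0.54 (adjusted p = 0.26 and 0.21). The p of ORMES-9 minus rPESC-2 was over 0.05 with only the 9 ES arrays (0.11) and with any of the 3 fibroblast, 3 rPESC-2 or 3 ORMES-9 arrays left out (0.053 to 0.16), with the difference at 0.65 to 0.87.

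By this probe set the order of TUBB3 levels was ORMES-9 (10.12 ± 0.17), ORMES-22 (10.03 ± 0.46), fibroblasts (9.94 ± 0.09) and rPESC-2 (9.37 ± 0.23; SD, n = 3 each). The first 3 neighbours differed by less than their spread, with 0.09 (interval -0.33 to 0.51) between ORMES-9 and ORMES-22 and -0.09 (interval -0.52 to 0.33) between fibroblasts and ORMES-22. Fibroblasts were 0.57 above rPESC-2 (SE 0.19, limma adjusted p = 0.027). MmugDNA.20747.1.S1_x_at, which shares its base name, followed it (r = 0.989 over 12 arrays), with rPESC-2 minus ORMES-22 at -0.95 (adjusted p = 0.0016) without ORMES-22 replicate A. The genes most like MmugDNA.20747.1.S1_at were NIBAN2 (r = 0.944), RGL1 (0.931) and FUCA2 (0.897) over 12 arrays, and STOX2 (0.974), NIBAN2 (0.969) and S100A11 (0.969) over the 9 ES arrays.

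Another TUBB3 probe set gave a different picture. MmugDNA.38692.1.S1_at read 7.96, 7.73 and 7.48 in fibroblasts, 6.70, 6.50 and 6.41 in ORMES-22, 6.36, 6.03 and 6.40 in rPESC-2, and 6.14, 6.35 and 6.39 in ORMES-9. Every fibroblast array was above every ES array. It rose in fibroblasts by 1.36 (SE 0.11, 2.57-fold, limma adjusted p = 4.6e-07), where MmugDNA.20747.1.S1_at differed by 0.10 (SE 0.16, adjusted p = 0.61). Over the 12 arrays these TUBB3 probe sets correlated at r = 0.130. The fourth, MmugDNA.24001.1.S1_at, ranged from 4.75 to 5.16 with no difference called. A rise of TUBB3 in fibroblasts thus holds for 1 of its 4 probe sets, and which transcript each one reads was not analysed here.

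DCX was low throughout. MmugDNA.19033.1.S1_at read 5.27, 4.62 and 4.83 in ORMES-22, 5.16, 4.98 and 5.04 in rPESC-2, 4.81, 4.74 and 4.75 in ORMES-9, and 3.88, 4.27 and 4.15 in fibroblasts. Every ES array was above every fibroblast array, and rPESC-2 was above ORMES-9 without overlap. The fibroblast difference was -0.81 (SE 0.12, 1.76-fold, limma adjusted p = 8.4e-05), below 2-fold and against values around the background level; with those raised to it the difference was -0.71.

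Among the ES lines the order of DCX was rPESC-2 (5.06 ± 0.09), ORMES-22 (4.90 ± 0.33) and ORMES-9 (4.77 ± 0.04), and no neighbours differed beyond their spread. rPESC-2 minus ORMES-22 was 0.16 (interval -0.16 to 0.48), ORMES-9 minus ORMES-22 -0.14 (interval -0.46 to 0.18) and ORMES-9 minus rPESC-2 -0.29 (interval -0.62 to 0.03). The other DCX probe set, MmugDNA.33022.1.S1_at, had no group mean above background. The genes most like MmugDNA.19033.1.S1_at over 12 arrays were CAVIN4 (r = 0.983), RHBDL1 (0.976) and SLC29A4 (0.971).

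GFAP was read by 2 probe sets that differed. MmuSTS.1721.1.S1_at read 8.46, 8.38 and 8.36 in ORMES-22, 8.73, 8.85 and 9.08 in rPESC-2, 8.89, 9.06 and 9.0 in ORMES-9, and 6.92, 6.80 and 6.86 in fibroblasts. The fibroblast arrays were lowest, the ORMES-22 arrays came next without overlap, and rPESC-2 and ORMES-9 overlapped at the top. In fibroblasts it fell by 1.90 (SE 0.07, 3.72-fold, limma adjusted p = 4.1e-10) below the ES lines.

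Between ES lines, GFAP MmuSTS.1721.1.S1_at was higher than in ORMES-22 by 0.49 in rPESC-2 (SE 0.09, 1.4-fold, limma adjusted p = 0.01) and by 0.58 in ORMES-9 (SE 0.09, 1.5-fold, adjusted p = 0.0022). Both differences were below 2-fold, and ORMES-22 is the reference of both. Without ORMES-22 replicate A they were 0.52 and 0.61, so they did not rest on that array. With only the 2 groups compared in the fit, the rPESC-2 difference had an adjusted p of 0.1. ORMES-9 and rPESC-2 differed by 0.10 (interval -0.10 to 0.30).

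The second GFAP probe set, MmuSTS.4827.1.S1_at, ranged from 5.79 to 6.13 over the 12 arrays and did not follow the first. It differed by -0.17 in fibroblasts (SE 0.07, limma adjusted p = 0.064), by -0.14 in rPESC-2 and by -0.07 in ORMES-9 relative to ORMES-22. Its rPESC-2 arrays lay just under the ORMES-22 arrays without overlap (limma adjusted p = 0.39), opposite in direction to MmuSTS.1721.1.S1_at. Over the 9 ES arrays the GFAP probe sets correlated at r = -0.363. The genes most like MmuSTS.1721.1.S1_at over 12 arrays were PIP4K2C (r = 0.995), NISCH (0.994) and DSG2 (0.994), the last a desmosomal cadherin of epithelia. All 3 were, like it, lower in fibroblasts than in each ES line.

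PAX3 did not differ by 2-fold between any groups. MmugDNA.30436.1.S1_at read 5.26, 5.35 and 5.26 in ORMES-22, 5.13, 5.23 and 5.14 in rPESC-2, 5.22, 5.36 and 5.34 in ORMES-9, and 4.92, 5.33 and 5.28 in fibroblasts. The groups overlapped but for rPESC-2, which lay just under ORMES-22. Its differences were -0.12 (interval -0.34 to 0.10) for rPESC-2 minus ORMES-22, 0.02 (interval -0.20 to 0.24) for ORMES-9 minus ORMES-22 and -0.08 (interval -0.26 to 0.10) for fibroblasts. These intervals leave out a 2-fold change of this probe set.

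Of the other PAX3 probe sets, MmugDNA.26824.1.S1_at ranged from 4.53 to 5.05, MmugDNA.39556.1.S1_at from 4.44 to 4.74 and MmuSTS.3542.1.S1_at from 3.43 to 4.23. The last had no group mean above background, and its fibroblast difference of -0.39 (limma adjusted p = 0.0088) is between group means under that level. The 4 PAX3 probe sets did not share a pattern, with correlations over 12 arrays of 0.173 to 0.706.

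**Figure D4:**
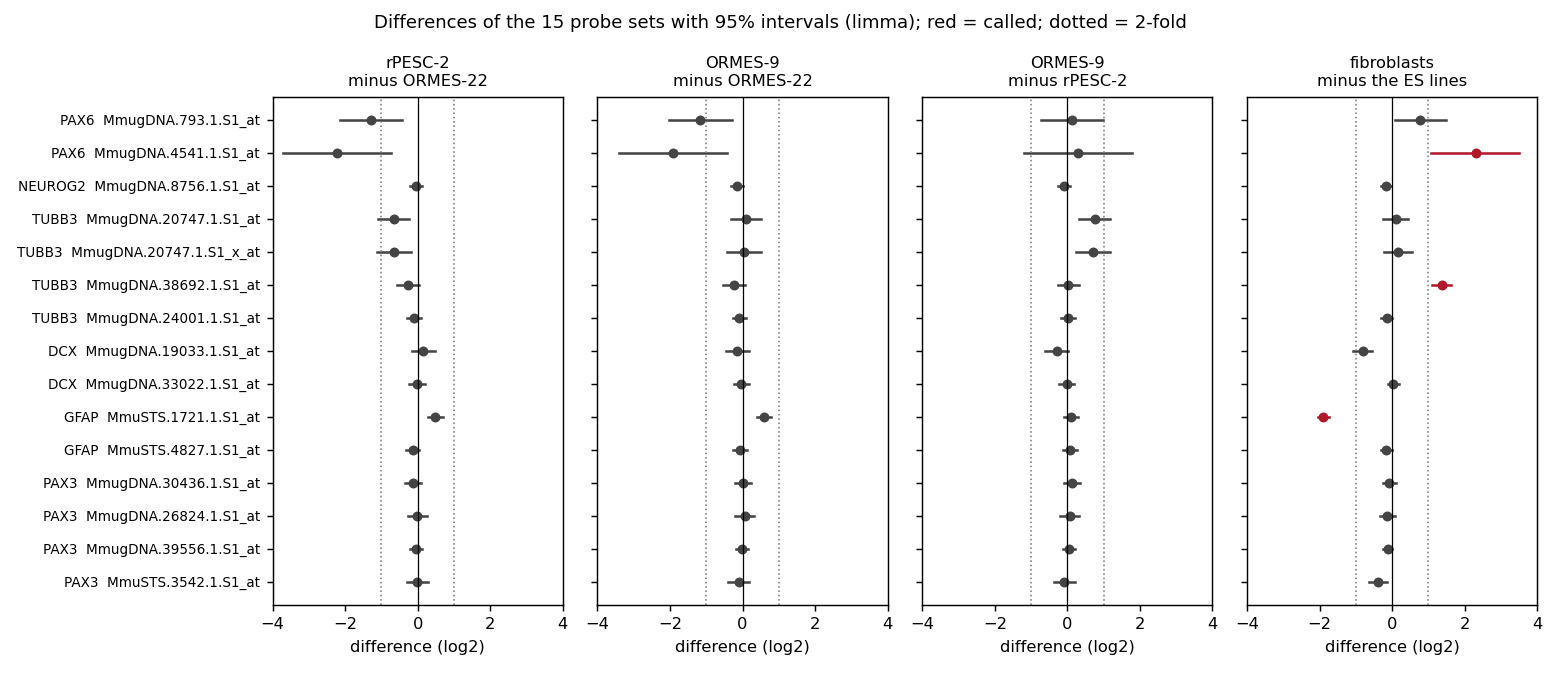
Differences (log2, horizontal axis) of the 15 probe sets in the 4 comparisons, with 95% intervals from limma; red marks an adjusted p under 0.05 at 2-fold or more, and dotted lines mark 2-fold. Only the panel of fibroblasts minus the ES lines has red points, 3 of 15: PAX6 MmugDNA.4541.1.S1_at, TUBB3 MmugDNA.38692.1.S1_at and GFAP MmuSTS.1721.1.S1_at.

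Counted together, between ES lines none of the 15 probe sets was called, that is, passed an adjusted p of 0.05 with at least 2-fold in limma. For rPESC-2 against ORMES-22, 0 of 15 were called beside 1.24% of all probe sets, 1 passed at any fold beside 4.81%, 5 had an unadjusted p under 0.05, and 4 had groups without overlap beside 20.3%. For ORMES-9 against ORMES-22 the counts were 0 beside 1.57%, 1 beside 5.98%, 3 unadjusted, and 3 without overlap beside 20.3%. For ORMES-9 against rPESC-2 they were 0 beside 1.23%, 1 beside 5.22%, 2 unadjusted, and 3 without overlap beside 22.5%. At these background shares a count of 0 among 15 is near what the whole array shows. No share over all probe sets was computed for the unadjusted counts, so they are not read as an excess or a lack. The 5 for rPESC-2 against ORMES-22 were probe sets of PAX6, TUBB3 and GFAP. The probe set that passed at any fold was GFAP MmuSTS.1721.1.S1_at in both comparisons with ORMES-22 and TUBB3 MmugDNA.20747.1.S1_at in the third. The other probe sets of these genes did not pass.

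Fibroblasts against the ES lines gave 3 of 15 called, 2 higher and 1 lower, beside 19.3% of all probe sets. At any fold 6 passed beside 60.3%, and 5 had groups without overlap beside 46%. The median difference over the 15 was -0.13, beside -0.111 over all probe sets, and in the ES comparisons -0.10, -0.07 and 0.07 beside -0.022, -0.013 and 0.012, in the order given above.

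Other genes of the same steps, and other PAX, beta tubulin and intermediate filament genes, were read from lists of 177 genes. Of these 117 were measured by a named probe set. The shares called are of all 117, epithelial keratins and lamins included, and not of neural genes alone. Of the 117, 5 were called in each comparison with ORMES-22 (4.27%, beside 1.24% of all probe sets for rPESC-2 and 1.57% for ORMES-9, or 1.82% and 2.38% of genes with 1 probe set a gene), and none in ORMES-9 against rPESC-2 (beside 1.23%, or 1.72% of genes). ELAVL2, an RNA-binding protein of young neurons, read 6.46, 6.50 and 6.71 in ORMES-22, 4.28, 4.77 and 4.07 in rPESC-2, 4.77, 4.90 and 4.73 in ORMES-9, and 3.17, 3.09 and 3.14 in fibroblasts. ORMES-22 was above the other ES lines in every array, replicate A included, unlike PAX6. The differences were -2.18 (SE 0.14, limma adjusted p = 5.9e-06) in rPESC-2 and -1.76 (SE 0.14, adjusted p = 1.9e-05) in ORMES-9.

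Of 19 genes of the neuronal cytoskeleton and synapse, none was called higher in rPESC-2 than in ORMES-22, while ELAVL2 and GAP43 were called lower. In ORMES-9 ELAVL2 was called lower and DCLK1 higher. GAP43, a growth cone protein, fell by 1.09 in rPESC-2 (SE 0.15, limma adjusted p = 0.0014), which became -0.93 without rPESC-2 replicate C and so under 2-fold. DCLK1, a relative of DCX, rose by 1.57 in ORMES-9 (SE 0.18, adjusted p = 3e-04), from 8.14 in ORMES-22 to 9.71. Below 2-fold, GAP43 was also lower in ORMES-9 (-0.95, limma adjusted p = 0.0021) and DCLK1 higher in rPESC-2 (0.73, adjusted p = 0.046). Of 25 proneural, Notch and Id genes only ID4, an inhibitor of proneural factors, was called, at -1.19 in rPESC-2 (adjusted p = 0.025) and -1.02 in ORMES-9 (adjusted p = 0.043). ID4 was not called in rPESC-2 without ORMES-22 replicate B (-1.08) or C (-0.99) or without rPESC-2 replicate A (-1.20) or B (-1.08), and in ORMES-9 it was not called without any of 10 of the 12 arrays (-0.82 to -1.02).

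Of 18 early neural plate and brain regulators only HESX1, a forebrain and pituitary repressor also active in pluripotent cells, was called, at 1.34 in rPESC-2 (SE 0.32, limma adjusted p = 0.035). That call was lost without any of 8 arrays, among them ORMES-22 replicate C (0.96) and rPESC-2 replicate C (1.06). None of the 18 radial glia and astrocyte genes was called between ES lines. An unadjusted p under 0.05 was found for 7, 5 and 4 in the 3 comparisons, without a share over all genes to set beside them. VIM, the filament of radial glia and of many other cells, was -0.96 in ORMES-9 (limma adjusted p = 0.017). Of 26 neural crest, melanocyte and dermomyotome genes only ERBB3, a neuregulin receptor, was called, at 1.39 in rPESC-2 (SE 0.31, adjusted p = 0.025) and 1.74 in ORMES-9 (SE 0.31, adjusted p = 0.0052). In rPESC-2 ERBB3 was not called without ORMES-22 replicate B (1.33) or C (1.01) or rPESC-2 replicate B (1.35) or C (1.28). Fitted on only the groups compared, its ORMES-9 difference had an adjusted p of 0.093. ORMES-9 against rPESC-2 had 0 of the 117 called, with NEFH, a neurofilament, at -0.97 and DCLK1 at 0.85; DCLK1 reached 1.03 and was called without rPESC-2 replicate B.

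Of the genes closest to the members in family, 3 other PAX genes and 2 other beta tubulins had none called in any of the 4 comparisons. For the PAX genes 1, 0, 0 and 1 and for the tubulins 1, 0, 1 and 2 had an unadjusted p under 0.05 in limma. No share over all genes stands beside these counts. Of 6 other intermediate filament genes KRT19, an epithelial keratin, rose in ORMES-9 by 1.48 (SE 0.28, adjusted p = 0.0071) over ORMES-22 (adjusted p = 0.11 with only the groups compared); in rPESC-2 it was 1.04 higher (adjusted p = 0.055), and 1.47 and called without ORMES-22 replicate A.

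**Figure D5:**
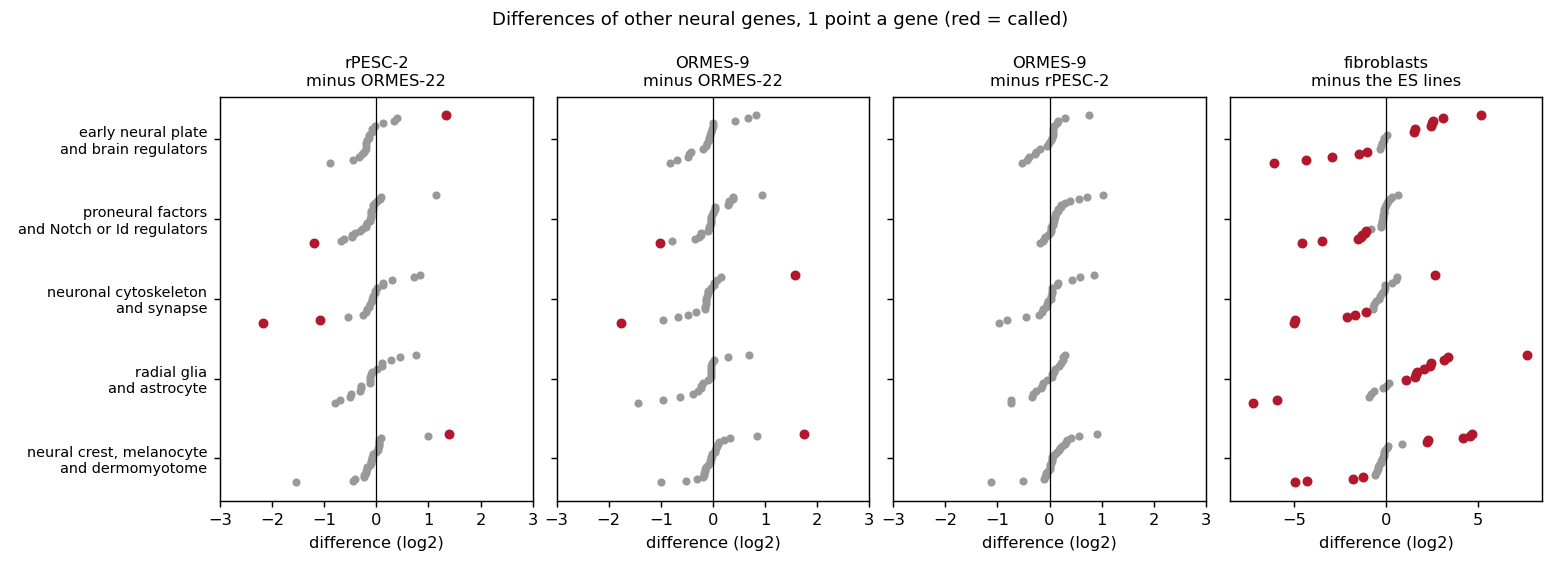
Differences (log2, horizontal axis) of the measured genes of 5 neural lists in the 4 comparisons, 1 point a gene, with red for genes called; the horizontal scale of the fibroblast panel is wider. The ES panels hold 0 to 2 red points a list, and the fibroblast panel holds genes called both higher and lower in 4 of the 5 lists.

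Fibroblasts differed from the ES lines in 50 of the 117 genes (42.7%, 24 higher and 26 lower), beside 19.3% of all probe sets and 28.3% of the 12993 genes read by 1 probe set a gene. Of the 18 early regulators 7 were called higher and 5 lower. SOX3, a neural and pluripotent cell factor, was at -6.07 (SE 0.13, limma adjusted p = 1.7e-12) and EMX2 at 5.17 (SE 0.06, adjusted p = 1.3e-14). Of the 25 proneural, Notch and Id genes 7 were called lower and none higher, led by NOTCH3 at -4.55 and EOMES at -3.49. Of the 19 neuronal genes 5 were called lower, with CRMP1 at -4.98 and DCLK1 at -4.96, and only STMN2 was called higher, at 2.66. With values under background raised to it, EMX2 was at 4.69 and DCLK1 at -4.74. In direction, PAX6 MmugDNA.4541.1.S1_at and TUBB3 MmugDNA.38692.1.S1_at differed here from DCLK1 and CRMP1 but not from STMN2. The other PAX6 and TUBB3 probe sets were not called in this comparison.

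Of the 18 radial glia and astrocyte genes 10 were called higher in fibroblasts and 2 lower. TNC, a matrix protein, rose by 7.68 (SE 0.11, limma adjusted p = 3.4e-14) and CRYAB, a chaperone, by 3.37, while PROM1 fell by 7.24 and PTPRZ1 fell by 5.93. With values under background raised to it, these were 7.55 for TNC, -6.92 for PROM1 and -5.54 for PTPRZ1. TNC and CRYAB are also known from fibroblasts and muscle. The summed signal of 11 skin fibroblast markers was 5.02e+04 to 5.14e+04 in the fibroblast arrays. Its bearing on the levels of TNC and CRYAB was not tested. GFAP MmuSTS.1721.1.S1_at moved with the 2 called lower. Of the 26 neural crest, melanocyte and dermomyotome genes 5 were called higher, with NGFR at 4.68 and MET at 4.57. Called lower were 4, with FOXD3 at -4.94 and ERBB3 at -4.29. With values under background raised to it, NGFR was at 4.51, FOXD3 at -4.87 and ERBB3 at -4.10. Of the 6 other intermediate filament genes LMNA rose by 3.51, and KRT19 fell by 6.20, KRT8 fell by 5.07 and PRPH fell by 1.79.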

How the data were processed

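RNA of 12 samples was read on 1 Affymetrix rhesus array each, and the deposited log2 values are the authors' RMA summaries. RMA is named in the submitters' processing notes, and its version and probe set definition are not given in the sources used here. The log2 scale was inferred from the values. RMA makes arrays alike in distribution and compresses differences near background. Of 52865 features 99 controls were left out, and 24956 of the 52766 probe sets had 1 symbol in the platform annotation. Precision is limited by the number of arrays.

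Differences came from moderated linear models of limma (version 3.58.1, R 4.3.3), with 4 group means and no covariate (residual df 8, prior df 3.69), with two-sided p-values adjusted by Benjamini-Hochberg over all probe sets. A call needs an adjusted p under 0.05 and at least 2-fold. The fibroblast comparison is with the mean of the 3 ES line means. The method was tested on simulated data. The members, gene lists and tests were chosen with earlier results of these data known.

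All members are named. The probe set of highest mean and any called probe set have values by array, and the PAX6 pair was shown in full. From each list up to 4 called genes with the largest difference, or the 2 largest, could be named, with 1 probe set a gene. The 3 most alike genes were ranked by Pearson r over above-background genes with an SD of at least 0.3. The lists were early neural plate, proneural and Notch or Id, neuronal, radial glia and astrocyte, neural crest, other PAX, other beta tubulin and other intermediate filament genes, with marker lists of pluripotent, fibroblast, endoderm, mesoderm, trophoblast, keratinocyte and endothelial cells. Whether replicate letters pair samples was not decided. Of 18 same-letter correlations of deviations 6 were over 0.1, with a range of -0.306 to 0.265. The highest was between replicates C of ORMES-22 and ORMES-9. No share for different letters stands beside this count, so it cannot show that pairing is absent.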

Additional observations from a re-analysis of the deposited data

How the results depend on the processing

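Of 1516 recomputed differences of single member probe sets, 1497 kept their side of the threshold, 3 lost a call, 16 gained one and none of those called changed sign. The count of called probe sets, 0 in each comparison of ES lines, became 2 for rPESC-2 and 2 for ORMES-9 against ORMES-22 with array weights, and 1 in each of the 3 with no minimum fold. With each array left out in turn it ranged from 0 to 2 in the comparisons with ORMES-22 (2 without ORMES-22 replicate A, both of PAX6), was 0 throughout for ORMES-9 against rPESC-2, and 3 throughout for fibroblasts. The fibroblast count of 3 became 6 with no minimum fold and 1 with 1 probe set a gene. With the replicate block the counts were 0, 0, 0 and 3, so it changed no member call; HESX1 lost its call in rPESC-2 (adjusted p = 0.056 in limma). Over all probe sets, the 656, 831, 650 and 10169 calls became 2536, 3158, 2753 and 31829 with no minimum fold, 207, 288, 209 and 5618 at 3-fold, and 236, 309, 223 and 3674 with 1 probe set a gene. Without ORMES-22 replicate A the first 2 became 1493 and 1284, and with array weights the first became 1006, or 332 with only the groups compared. The cause of these changes was not tested, other than what fewer features, fewer arrays or another minimum fold bring by construction. For fibroblasts the fit of only the groups compared is the reported fit. Subtracting array medians moved the median fibroblast difference from -0.111 to -0.077. Probe sets near background, NEUROG2, DCX and most of PAX3 among them, carry little information.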

Other observations

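Lists of other cell types were read in the same comparisons. Endoderm markers called against ORMES-22 were higher in rPESC-2 and ORMES-9, the reverse of the PAX6 difference in means. Of 7 markers, 4 were called higher in rPESC-2 and 3 in ORMES-9, and none lower, beside 1.24% and 1.57% of all probe sets called. Between the 2 other lines CER1 was called, lower in ORMES-9 than in rPESC-2 (-1.19, limma adjusted p = 0.04). SOX17 was 2.92 higher in rPESC-2 (SE 0.35, limma adjusted p = 0.00053) and 2.37 higher in ORMES-9 (SE 0.35, adjusted p = 0.0014). FOXA2 was 1.89 and 2.33 higher. ACTC1, a cardiac actin, was the only called gene of 8 mesoderm markers and fell by 2.48 in rPESC-2 and by 2.24 in ORMES-9. Of 9 pluripotency genes, GDF3 was 1.23 higher in rPESC-2 and 1.29 higher in ORMES-9 than in ORMES-22. PRDM14 was called higher in ORMES-9 than in each of the other ES lines, by 1.56 over ORMES-22 and by 1.56 over rPESC-2. Keratinocyte genes had 0 of 4 called in the 4 comparisons. An unadjusted p under 0.05 was found for 2 in the fibroblast comparison, without a share over all genes beside it. Of 7 endothelial genes only TEK was called between ES lines, where it fell by 2.29 in ORMES-9 against ORMES-22 (means 7.85 and 10.15). It was also called lower in ORMES-9 than in rPESC-2, by 2.21 (mean 10.06 in rPESC-2).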
